A study of Mus musculus with 12 samples.

Results

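The arrays compared here are the 3 of mice given ethanol alone and the 3 of mice given saline, 6 of the 12 arrays of the series, taken by their source label and described over all 19938 genes that carry a single symbol. All of the mice were adolescent males of Swiss CD-1, an outbred stock, and all went through conditioned place preference, a 10-day procedure in which an animal learns to associate a compartment with a drug. Treatment preceded each stay in the drug-paired compartment by 15 minutes. RNA came from the anterior striata and was measured on Affymetrix whole-transcript arrays. The other 6 arrays are 3 of mice given mephedrone, a synthetic cathinone stimulant, and 3 of mice given mephedrone with ethanol, called the combination here. They served to estimate the spread and to show another ethanol step, the combination minus mephedrone, which shares no array with ethanol minus saline. The labels give no dose and no hour of collection, nor do they state that the 3 arrays of a group came from different mice. The p-values are thus measured against array-to-array spread, and some of it may be technical.

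Ethanol strengthens inhibition at GABA-A receptors and weakens excitation at NMDA-type glutamate receptors, and it raises dopamine release in the striatum, a region central to reward and habit. In the body it is oxidised to acetaldehyde by alcohol dehydrogenases, and in the brain also by catalase and Cyp2e1, before aldehyde dehydrogenases turn acetaldehyde into acetate. Neurons that fire strongly transcribe immediate early genes such as Fos and Egr1 within minutes, largely through calcium and the ERK kinase cascade, so these transcripts serve as markers of recent activity.

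Every value is a log2 difference from the median of its probe set over the 12 arrays, so arrays can be compared but the level of a gene cannot be read, and the labelled tissue could not be checked against the level of its markers. Where values are listed, replicates 1, 2 and 3 follow in that order. Ethanol replicate 1 stood apart from the other 5 arrays. Its SD over all probe sets was 0.127, against 0.0815 to 0.102 in the others. The array weights that limma estimated were 0.36 for ethanol replicate 1 and 0.89 to 1.73 for the other 5. The 13 choroid plexus markers measured, genes of the secretory tissue of the ventricles, had list means of -0.050, 0.75 and -0.11 in the saline arrays and 0.53, -0.060 and -0.10 in the ethanol arrays. Saline replicate 2 and ethanol replicate 1 were thus the high arrays of that tissue, and each group held 1 of them. Markers of the lateral septum, which borders the striatum, had a list mean of 0.61 in ethanol replicate 1 and between -0.10 and 0.14 in the other 5 arrays. Those of striatal projection neurons had -0.12 in ethanol replicate 1 and 0.0031 to 0.088 elsewhere. In such bulk tissue, fewer cells of a type and less RNA per cell cannot be told apart.

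**Figure D1:**
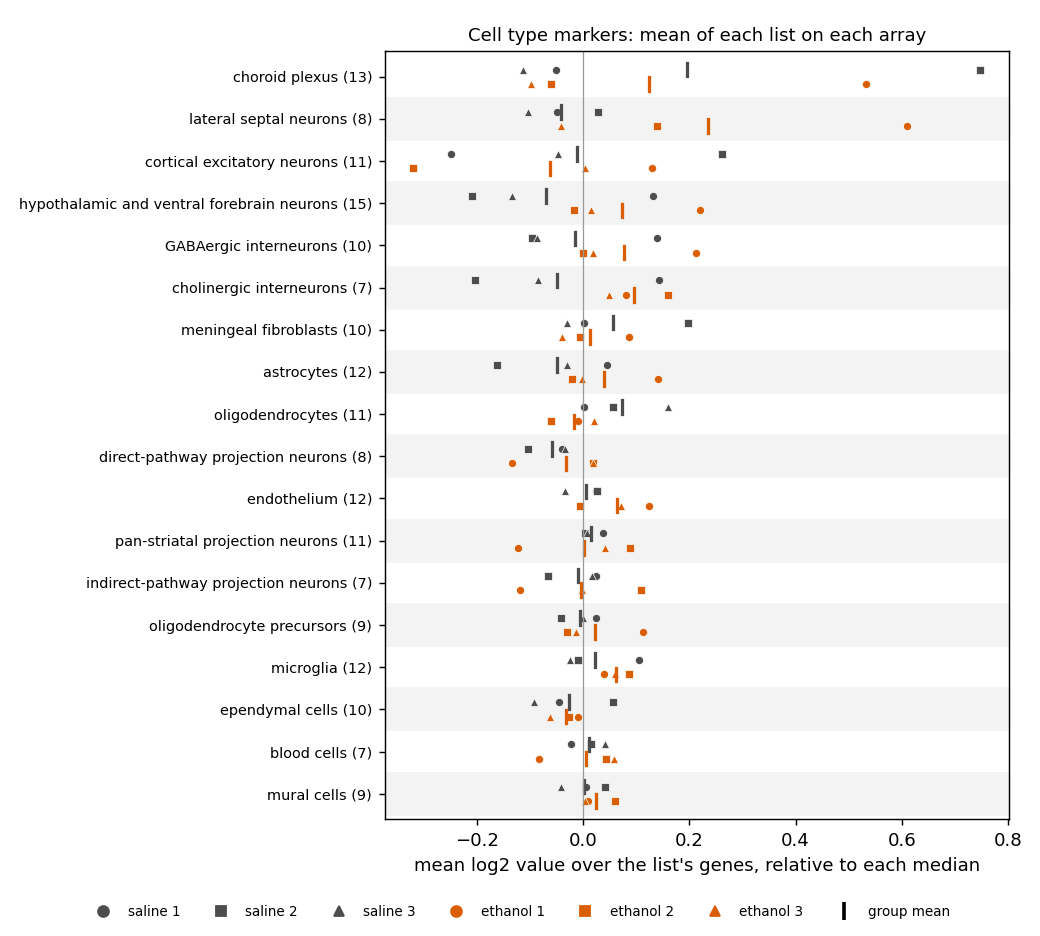
Mean log2 value of 18 lists of cell type markers on each of the 6 arrays, relative to each probe set's median over the 12 arrays, with the number of measured genes in brackets and a bar at each group mean. Saline replicate 2 and ethanol replicate 1 lie far to the right for choroid plexus, and ethanol replicate 1 alone does so for lateral septal neurons.

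No probe set separated ethanol from saline after correction for the number tested. Of 28853 probe sets, 0 (0%) had a Benjamini-Hochberg adjusted p under 0.05 in limma's moderated test, and the smallest adjusted p was 0.661. At an unadjusted p under 0.05 there were 977 higher (3.39%) and 463 lower (1.6%) with ethanol, 1440 in all. With the ordinary variance of each probe set in place of limma's moderated one, 0 passed after adjustment and 1326 lay at an unadjusted p under 0.05. The 3 ethanol arrays lay above all 3 saline arrays in 5.26% of probe sets and below them in 3.31%. None of the genes named below passed the adjusted threshold, and their differences are given as measured values.

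Over genes, each with 1 value, the differences leaned towards higher with ethanol. Of 19938 genes, 58.9% had a difference above 0, and the median difference was only 0.011 in log2. At an unadjusted p under 0.05 there were 811 genes higher (4.07%) and 181 lower (0.908%), so 81.8% of them were higher. After quantile normalisation of the deposited values the same counts were 499 higher and 225 lower, or 68.9% higher, and the median over genes was 0.0035. Without saline replicate 2 and ethanol replicate 1, the arrays high in choroid plexus markers, they were 528 and 233, or 69.4% higher. The ethanol arrays lay wholly above the saline arrays in 6.1% of genes and wholly below in 2.44%. Most intervals were narrow. Weakly expressed genes could not be set aside among them, however, and the arrays of a group are not stated to come from different mice. Half-widths of the 95% confidence intervals had a median of 0.115 in log2 and lay between 0.080 and 0.196 for the middle of the genes, from the 10th to the 90th percentile. For 99% of genes the whole interval lay within a 1.5-fold change in either direction, and for 208 it reached further. Measured differences of at least 1.5-fold were seen in 8 probe sets that were higher and 2 that were lower.

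Genes whose ethanol and saline arrays did not overlap and differed by at least 0.3 numbered 22 higher and 5 lower among single-symbol probe sets, and 15 of the higher and all 5 lower were taken for description by the smallest unadjusted p. Bcl6, a transcriptional repressor, had 0.40, 0.065 and 0.25 with ethanol against -0.068, -0.16 and -0.48 with saline. Every ethanol array lay above 0 and every saline array below it, and the difference was 0.48 (SE 0.10, limma unadjusted p = 0.000553, adjusted p = 0.992). Nfu1, which helps to load iron-sulphur clusters onto mitochondrial enzymes, had 0.0070, -0.19 and -0.25 with ethanol and -0.52, -0.51 and -0.54 with saline, a difference of 0.38 (SE 0.10). Its saline arrays were tightly grouped, but its other probe set differed by only 0.023, so the gene's probe sets disagreed. Cartpt, the precursor of the CART peptide of striatal and accumbal neurons, had 0.26, -0.0063 and 0.26 with ethanol and -0.039, -0.28 and -0.14 with saline, which left a gap of little width between ethanol replicate 2 and saline replicate 1. The difference in Cartpt was 0.33 (SE 0.13). Ngb, the neuronal globin neuroglobin, was 0.54, 0.25 and 0.082 with ethanol and -0.0097, -0.087 and 0.0097 with saline.

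The size of several of these differences rested on ethanol replicate 1. In Abi3bp, an extracellular matrix protein, that array had 1.03 and the other 2 ethanol arrays had 0.081 and 0.082, and the difference of 0.46 became 0.15 without it. For Palmd, an actin-associated protein, it went from 0.34 to 0.19, and for Ngb from 0.32 to 0.19. Of the 3 ethanol arrays, ethanol replicate 1 lay farthest from the saline mean in 13 of the 20 genes described. Usp29, Tcerg1l, AI413582 and Nt5dc3 differed by 0.37, 0.34, 0.30 and 0.52, and by 0.26, 0.24, 0.20 and 0.38 without it. Differences that moved little when it was left out included those of Cyp2j12, a cytochrome P450 of the fatty acid epoxygenase family, and of Ocel1. Cyp2j12 had 0.21, 0.42 and 0.35 with ethanol against 0.0017, -0.19 and -0.095 with saline. Ocel1 had 0.26, 0.17 and 0.22 against 0.019, -0.35 and -0.11. Without ethanol replicate 1 the differences of Cyp2j12 and Ocel1 were 0.47 and 0.34, against 0.42 and 0.36 with it. Without saline replicate 2 Ocel1 was 0.26. The other higher genes were Gm1976, Qrfprl and Fos, at 0.52, 0.30 and 0.31, and at 0.59, 0.29 and 0.32 without ethanol replicate 1. Gm1976 was 0.34 without saline replicate 3.

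Lower with ethanol on every array were Mxra8, a cell surface protein of the immunoglobulin family, Eapp, an E2F-associated phosphoprotein, the clone 5830417I10Rik, Dnah6, a dynein heavy chain of motile cilia, and Gh, growth hormone. Gh had 0.013, 0.83 and 1.47 with saline and -0.44, -0.17 and -0.14 with ethanol. Its saline arrays ran from near 0 to the highest value of the 6, and the difference of -1.02 had an SE of 0.49 (limma unadjusted p = 0.0593). Without saline replicate 3 it was -0.67. Mxra8 had 0.015, -0.051 and 0.015 with saline and -0.22, -0.54 and -0.18 with ethanol, a difference of -0.31 (SE 0.094) that was -0.20 without ethanol replicate 2. Eapp differed by -0.38 (SE 0.14), with -0.28, -0.33 and -0.40 in the ethanol arrays and 0.29, -0.14 and -0.029 in the saline arrays. The low value of Dnah6 came mostly from ethanol replicate 1, at -0.62, and its difference of -0.36 became -0.15 without that array. The other 2 probe sets of Dnah6 differed by -0.35 and -0.31. For the clone the difference went from -0.30 to -0.16.

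**Figure D2:**
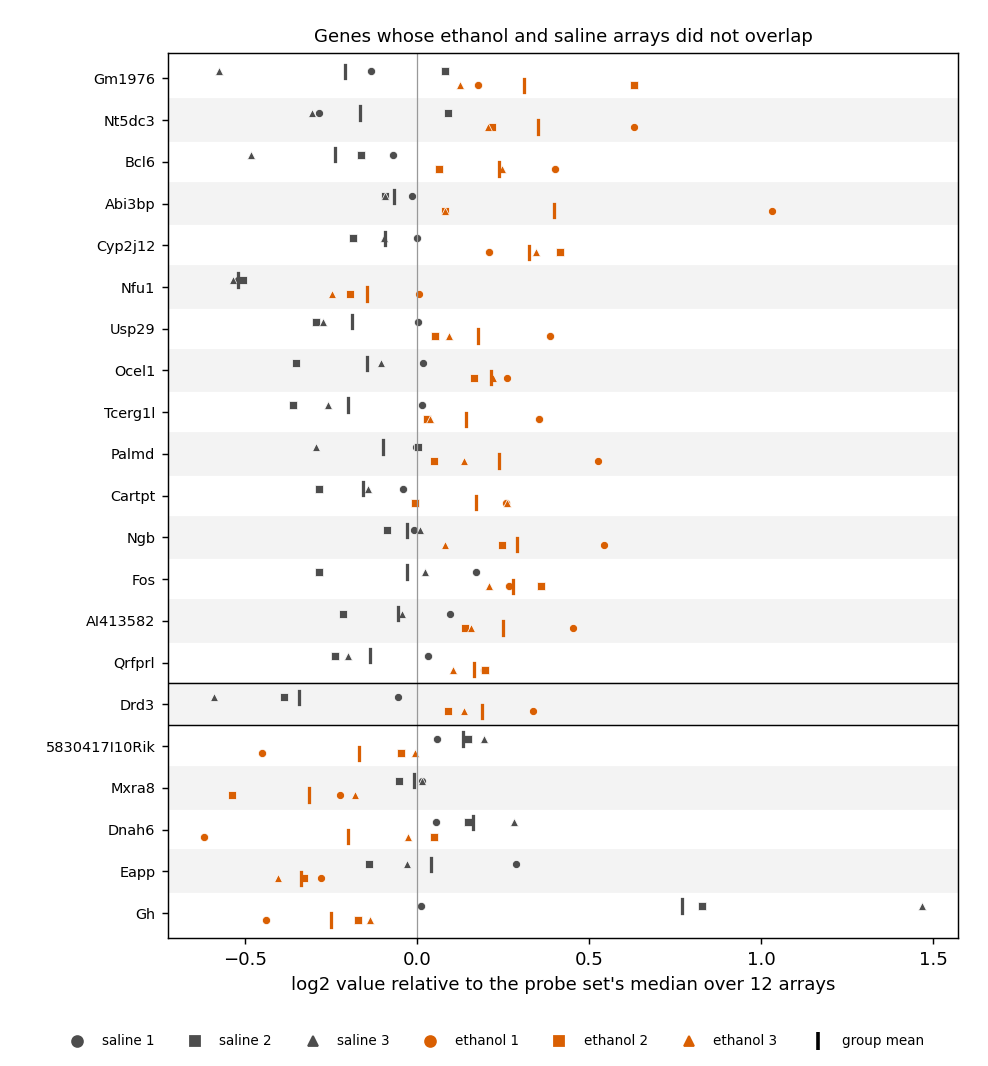
Log2 values on each array, relative to the probe set's median over 12 arrays, for the 15 higher (top) and 5 lower (bottom) genes named among those whose ethanol and saline arrays do not overlap and differ by at least 0.3, with Drd3 between the lines and a bar at each group mean. Ethanol replicate 1 is the ethanol array farthest from the saline mean in 13 of the 20 genes, as in Abi3bp, where it stands at 1.03.

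The largest differences, taken whatever the overlap, were often led by single arrays. Snord53, a small nucleolar RNA, differed most, with 1.62, 1.00 and 1.81 with ethanol and 1.14, -0.92 and -0.71 with saline. Saline replicate 1 lay among the ethanol arrays, and the difference was 1.64 (SE 0.50, limma unadjusted p = 0.00691). Zic1, a transcription factor of the septum and other midline regions, had 1.87, 0.57 and 0.021 with ethanol and 0.012, -0.087 and -0.034 with saline. Its difference of 0.86 became 0.33 without ethanol replicate 1. In the same way Calb2, the calcium buffer calretinin, went from 0.72 to 0.21, and Glp1r, the receptor of the incretin GLP-1, from 0.70 to 0.31. The difference of 0.61 in Ndst4, a heparan sulphate enzyme, ended at -0.018. Lateral septal markers were high on that array, as given above, and their part in these values was not tested.

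Glo1, which detoxifies methylglyoxal, was higher by 0.64 (SE 0.20) on a probe set and by 0.63 (SE 0.20) on another. The former had 0.65, 0.0079 and 0.56 with ethanol and 0.092, -0.40 and -0.39 with saline, so that ethanol replicate 2 lay below saline replicate 1. The latter had nearly the same values, 0.60, 0.0062 and 0.55 with ethanol and 0.059, -0.37 and -0.41 with saline, and is not separate support. Peg10, a paternally expressed gene, had 0.14, -0.0099 and 0.10 with ethanol and 0.14, -0.79 and -0.84 with saline, where saline replicate 1 again lay with the ethanol arrays, and its difference was 0.57, or 0.89 without that array. Among the largest negative differences, Cd59a, an inhibitor of complement lysis, had -0.34, -0.91 and -1.18 with ethanol and 0.16, -0.65 and 0.19 with saline. Saline replicate 2 lay within the ethanol range, and the difference was -0.71 (SE 0.27). Ttr, made in choroid plexus, and Ptgds, made in meninges and glia, differed by -0.44 (SE 0.96) and -0.43 (SE 0.29) and had their highest values on the array of each group that was high in choroid plexus markers, with Ttr at 2.25 in saline replicate 2 and 2.00 in ethanol replicate 1. Ttr was 0.33 without saline replicate 2 and -1.31 without ethanol replicate 1, and Ptgds was -0.095 without saline replicate 2. Pilra, Islr and Thbs4 differed by -0.41, -0.38 and -0.38, all with overlapping arrays. Without saline replicate 2, Islr and Thbs4 were -0.14 and -0.12, and without saline replicate 3 Pilra was -0.18.

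Small differences with little spread gave the smallest p-values. Lsm4, a subunit of the separate rings that bind U6 RNA or direct messenger decay, had -0.21, -0.17 and -0.18 with ethanol and 0.051, 0.030 and 0.0069 with saline. Both groups were tight, and the difference of -0.22 (SE 0.032) had the smallest p over genes (limma unadjusted p = 2.67e-05, adjusted p = 0.533). Next by p over genes came Mpp3, a synaptic scaffold protein, higher by 0.19, Aldh1a7, an aldehyde dehydrogenase, by 0.17, and Prps1, which makes the ribose precursor of nucleotides, by 0.21. Aldh1a7 had 0.057, 0.053 and 0.040 with ethanol and -0.075, -0.13 and -0.16 with saline. These 4 genes were chosen after their values were seen.

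Immediate early genes were mostly higher with ethanol, but 1 saline array resembled the ethanol arrays. This list and those below were chosen with earlier results of these data known, so their counts and ranks are descriptions only. Of 31 measured, 23 lay above 0, and 9 were higher and 0 lower at an unadjusted p under 0.05, against 4.07% and 0.908% of all genes, of which 58.9% lay above 0. The median difference of the list was 0.12, against 0.011 over all genes. Members of a list can vary together over the arrays, so such counts, here and below, are not of independent observations. The shares of all genes given here hold for the lists below as well. Egr2, a zinc finger factor induced by activity, had 0.87, 0.95 and 0.95 with ethanol and 0.89, -0.017 and 0.0038 with saline. The 3 ethanol arrays were close together, saline replicates 2 and 3 were near 0, and saline replicate 1 lay within the ethanol range. The difference of 0.63 (SE 0.20, limma unadjusted p = 0.00971) became 0.93 without saline replicate 1. Nr4a1 and Nr4a3, orphan nuclear receptors, showed the same arrangement of arrays. Nr4a1 had 0.67, 0.88 and 1.00 with ethanol and 0.83, -0.071 and 0.071 with saline, a difference of 0.57. Nr4a3 had 0.63, 0.41 and 0.72 with ethanol and 0.56, -0.26 and -0.20 with saline, a difference of 0.55 (SE 0.18).

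Fos, Fosb and Dusp6 were the 3 of 31 members whose ethanol arrays lay above all saline arrays, which 6.1% of all genes did, so this count is not read as a result about the list. Fos, a part of the AP-1 factor, had 0.27, 0.36 and 0.21 with ethanol and 0.17, -0.28 and 0.023 with saline, a difference of 0.31 that was 0.18 without saline replicate 2. Fosb, whose long-lived splice form builds up in the striatum with repeated drug exposure, had 0.31, 0.25 and 0.22 with ethanol and 0.21, -0.12 and -0.054 with saline, a difference of 0.25 (SE 0.087). Vgf, Sik1 and Jun were the other members at an unadjusted p under 0.05, with differences of 0.28, 0.24 and 0.13. Arc and Egr1, the most used activity markers beside Fos, overlapped between groups. Arc had 0.37, 0.53 and 0.45 with ethanol and 0.71, -0.12 and 0.18 with saline, and its difference was 0.19 (95% confidence interval -0.18 to 0.56). For Egr1 the difference was 0.22 (95% confidence interval -0.018 to 0.47). Npas4, which responds to calcium entry, had the most negative value of the list, -0.37 (SE 0.22), which ran from -0.60 without ethanol replicate 1 to -0.11 without ethanol replicate 3, and Nr4a2, Egr3, Bdnf and Junb had values from -0.10 to 0.016. Several genes of the group thus had values at or below 0 while Fos and Egr2 were high.

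Saline replicate 1 was the highest saline array in 26 of the 31 immediate early genes, against 39.3% of all genes. List means were 0.22, -0.073 and -0.014 in the saline arrays and 0.21, 0.17 and 0.17 in the ethanol arrays. The ethanol arrays were nearly alike, and saline replicate 1 was level with the highest of them. The list median was 0.15 without saline replicate 1, 0.084 without ethanol replicate 1 and 0.054 without both arrays high in choroid plexus markers. After quantile normalisation it was 0.089. Midn, which encodes midnolin, a nuclear protein that brings immediate early gene products to the proteasome, was the 1 probe set to pass in any alternative tried for this comparison. It had 0.42, 0.29 and 0.49 with ethanol and 0.47, -0.16 and -0.24 with saline. Without saline replicate 1 its difference was 0.60 (SE 0.057, limma adjusted p = 0.0264), and with all arrays it was 0.38 (SE 0.14, limma adjusted p = 0.992). Midn was named after its values were seen.

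Half-sites of the cAMP response element, to which the activity-dependent factor CREB binds, were looked for in the 250 bases before the RefSeq start of each gene (GRCm38.p6). The letters TGACG, on either strand, were in the windows of 16 of the 22 immediate early genes that had one, against 17.8% of 32851 windows of all genes. A listed gene counted if any window of it matched, while the share of all genes is over single windows. The full element, in which TCA follows TGACG and which therefore holds the half-site, was in 3 of the 22, against 1.55% of all windows. The windows of Nr4a1 (chr15:101266596-101266845, plus strand) and Nr4a3 (chr4:48045055-48045304, plus strand) are shown because both held 4 half-sites and both were among the members with the largest differences, with the matches in capitals.
Nr4a1: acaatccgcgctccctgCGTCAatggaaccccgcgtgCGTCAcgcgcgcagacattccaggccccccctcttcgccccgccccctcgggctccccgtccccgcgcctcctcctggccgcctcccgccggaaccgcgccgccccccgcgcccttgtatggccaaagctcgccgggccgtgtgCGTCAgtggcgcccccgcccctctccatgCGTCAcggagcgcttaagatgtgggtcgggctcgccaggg
Nr4a3: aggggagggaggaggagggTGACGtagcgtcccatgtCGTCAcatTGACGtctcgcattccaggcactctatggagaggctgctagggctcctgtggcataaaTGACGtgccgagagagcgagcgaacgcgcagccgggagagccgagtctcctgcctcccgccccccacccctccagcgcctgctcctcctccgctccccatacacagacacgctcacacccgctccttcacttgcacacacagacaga
In Nr4a1 all 4 matches read CGTCA, the reverse strand, and the nearest began 40 bases before the start. In Nr4a3 the nearest began 147 bases before it. A match of letters describes the window only and does not show binding. The share of genes with a match describes the choice of list and says nothing about ethanol.

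Feedback regulators of the ERK cascade, which ERK signalling induces and which then restrain it, had the highest median of the 37 lists, 0.18. That rank is not evidence, since the lists were chosen with earlier results of these data known. All 12 measured members lay above 0, against 58.9% of all genes, 4 were higher at an unadjusted p under 0.05, against 4.07%, and 4 had ethanol arrays above all saline arrays, against 6.1% of all genes. Dusp6, a phosphatase of ERK, had 0.32, 0.33 and 0.27 with ethanol and 0.15, -0.062 and 0.00016 with saline. Its difference was 0.28 (SE 0.057, limma unadjusted p = 0.000432, adjusted p = 0.997). The groups were clear of each other, and the 3 ethanol arrays lay close together. Dusp5, the nuclear ERK phosphatase, had 0.093, 0.12 and 0.11 with ethanol and 0.018, -0.24 and -0.072 with saline, a difference of 0.20 (SE 0.068) that was 0.13 without saline replicate 2. Errfi1, an inhibitor of EGF receptors, differed by 0.12 (SE 0.041), and Spry4, of the Sprouty inhibitors, by 0.27 (SE 0.11), or 0.40 without saline replicate 1. Spry1 and Spry2 were at 0.040 and 0.023. Saline replicate 1 was the highest saline array in 11 of the 12, and the list median was 0.25 without it and 0.11 without saline replicate 2. Dusp1 and Dusp6 stand in both lists.

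Chaperones and other genes of the unfolded protein response, which cells induce when proteins misfold in the endoplasmic reticulum, were the third group of this kind. Of 19 measured heat shock and unfolded protein genes, 18 lay above 0, against 58.9% of all genes, and 7 were higher at an unadjusted p under 0.05, against 4.07%, with a list median of 0.12. Hspa5, the main chaperone of the endoplasmic reticulum, had 0.33, 0.19 and 0.31 with ethanol and 0.28, -0.26 and -0.15 with saline. Saline replicate 1 lay with the ethanol arrays, and the difference was 0.32 (SE 0.12, limma unadjusted p = 0.0177). It was 0.48 without saline replicate 1 and 0.21 without saline replicate 2. Pdia6, a disulphide isomerase, had 0.13, 0.015 and 0.15 with ethanol and -0.10, -0.12 and -0.15 with saline, without overlap, a difference of 0.22 (SE 0.082). Creld2, a secreted stress marker, had 0.22, 0.064 and 0.16 with ethanol and 0.14, -0.20 and -0.19 with saline, and its difference was 0.23 (SE 0.082). Calr, the lectin chaperone calreticulin, Hsph1, a cytosolic co-chaperone, Hspb1, a small heat shock protein, and Xbp1, the factor spliced during that response, differed by 0.12, 0.12, 0.25 and 0.20. Hsph1 was 0.077 without ethanol replicate 3 and Hspb1 0.17 without saline replicate 3. Ddit3 and Atf4, of the PERK branch, had 0.028 (95% confidence interval -0.10 to 0.16) and 0.036 (95% confidence interval -0.11 to 0.18). Saline replicate 1 was the highest saline array in 15 of the 19. The list median was 0.17 without it. Without both arrays high in choroid plexus markers it was 0.073, with 13 of 19 above 0.

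Promoters of this group were searched for the endoplasmic reticulum stress element, CCAAT followed after 9 bases by CCACG, on both strands of the 250 bases before the RefSeq start. It was found in 5 of the 16 members with a window (Hspa5, Hsp90b1, Calr, Pdia6 and Creld2), against 37 of 32851 windows of all genes (0.113%). As above, members were counted by gene and the share is over single windows. Of these, Hspa5 (chr2:34771840-34772089), Creld2 (chr15:88819396-88819645) and Pdia6 (chr12:17266339-17266588), all on the plus strand of GRCm38.p6, had the larger differences and are shown with the element in capitals.
Hspa5: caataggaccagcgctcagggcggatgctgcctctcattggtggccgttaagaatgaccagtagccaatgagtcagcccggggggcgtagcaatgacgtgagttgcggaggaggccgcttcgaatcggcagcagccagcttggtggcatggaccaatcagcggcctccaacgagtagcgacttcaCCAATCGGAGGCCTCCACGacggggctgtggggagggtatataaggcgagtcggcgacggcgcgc
Creld2: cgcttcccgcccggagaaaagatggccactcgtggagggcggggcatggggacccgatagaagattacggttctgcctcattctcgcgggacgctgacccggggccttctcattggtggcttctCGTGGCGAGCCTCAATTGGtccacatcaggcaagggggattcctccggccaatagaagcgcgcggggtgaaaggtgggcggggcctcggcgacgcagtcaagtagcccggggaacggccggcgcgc
Pdia6: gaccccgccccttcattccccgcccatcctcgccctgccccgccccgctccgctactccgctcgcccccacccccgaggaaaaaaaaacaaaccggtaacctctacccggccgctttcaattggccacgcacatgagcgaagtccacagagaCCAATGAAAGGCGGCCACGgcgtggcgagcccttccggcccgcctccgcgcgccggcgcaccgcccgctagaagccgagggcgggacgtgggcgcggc
The element began 65 bases before the start in Hspa5, 98 in Pdia6 and 126 in Creld2, where it lies on the reverse strand. Hsp90b1, which also holds it, differed by 0.058 (95% confidence interval -0.046 to 0.16), so members with the element did not all have like values. The search used no value from the arrays, so its share describes the choice of list and says nothing about ethanol.

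**Figure D3:**
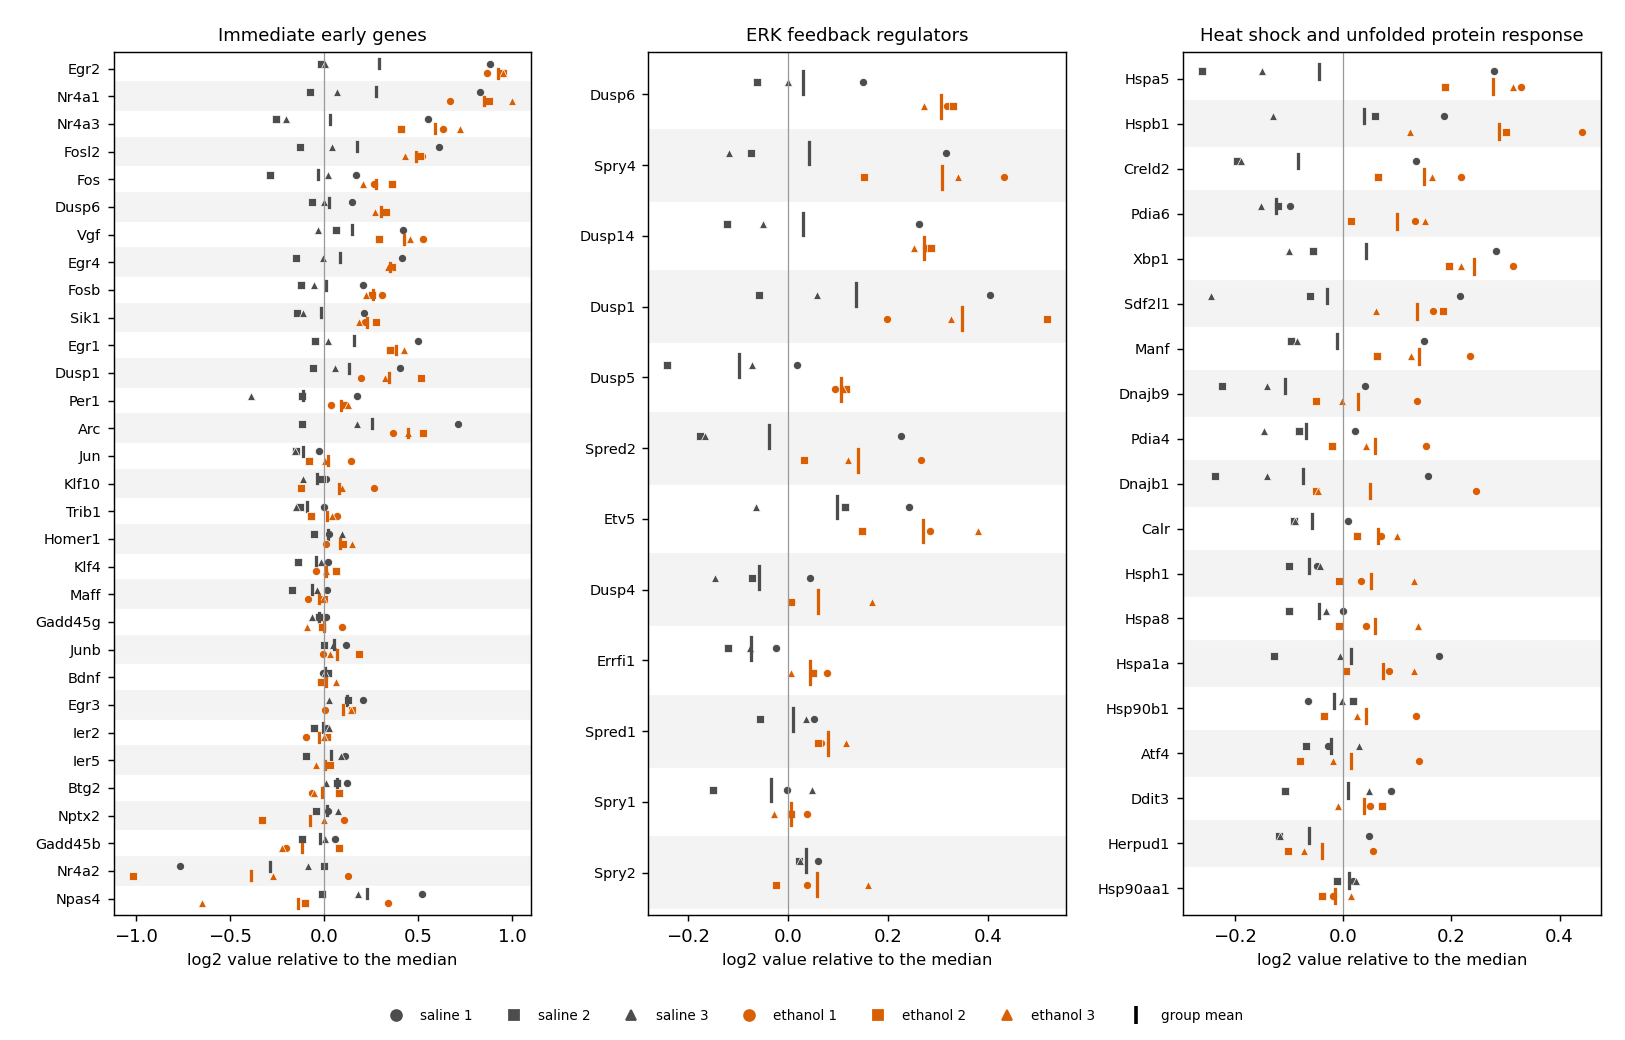
Log2 values relative to the median over 12 arrays for every measured member of 3 gene lists, ordered by ethanol minus saline, with a symbol for each array and a bar at each group mean. In most of the upper rows saline replicate 1 (grey circle) lies with the ethanol arrays and away from saline replicates 2 and 3, as for Egr2 at 0.89 and Nr4a1 at 0.83.

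With mephedrone present, the ethanol step gave lower medians for these 3 groups. No probe set passed for the combination minus mephedrone (limma, 0 of 28853, smallest adjusted p 0.988, 1062 at an unadjusted p under 0.05). Of all genes 51.9% lay above 0, 1.89% were higher and 1.42% lower at an unadjusted p under 0.05. The median of immediate early genes was -0.053 in that step, with 10 of 31 above 0. For ERK feedback regulators it was -0.041, and for heat shock and unfolded protein genes 0.020. Dusp6 was -0.069 there, and its interaction had an unadjusted p of 0.00112 in limma's test. Egr2 was -0.22 (unadjusted p = 0.0129 for the interaction in limma), Fos -0.14 (unadjusted p = 0.0104) and Hspa5 0.026 (unadjusted p = 0.0989). Npas4 was -0.82 (SE 0.22) in that step and -0.37 without mephedrone. Of the 31 immediate early genes, 0 were higher and 1 lower in that step at an unadjusted p under 0.05, and the 1 was Npas4. No interaction passed after adjustment (limma, 0 of 28853, smallest adjusted p 0.786, 991 at an unadjusted p under 0.05). At an unadjusted p under 0.05, 3.54% of all genes had an interaction, and 7 of the 31 immediate early genes, 3 of the 12 ERK feedback regulators and 3 of the 19 heat shock and unfolded protein genes did. The interaction contains the ethanol minus saline differences for which these lists stood out, so these counts are not separate evidence. The same holds for interaction values, here and below, of genes or lists named for that difference.

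Taken over all genes the steps showed little relation, though some named genes had like values in both. Of the 15 higher genes named without overlap, 4 were above 0 in the combination minus mephedrone, and of the 5 lower ones 4 were below 0. Cyp2j12 was 0.40 there and 0.42 without mephedrone. Its combination arrays ran widely, at -0.023, 0.32 and 0.61, against -0.15, -0.14 and -0.0017 with mephedrone. Gh was -1.21 against -1.02. It had -0.30, -0.013 and -0.085 in the combination arrays and 0.61, 0.22 and 2.42 with mephedrone, so its size owed much to mephedrone replicate 3. Ocel1 was -0.26 against 0.36, with the smallest interaction p of these 20 genes (limma unadjusted p = 0.000410, adjusted p = 1.00). Lsm4 was 0.071 (limma unadjusted p = 4.77e-05 for the interaction). These interaction p-values reuse the saline and ethanol arrays by which the genes were chosen. Only the combination minus mephedrone values come from other arrays. Among the genes with the largest differences, Glo1, at 0.37 on both probe sets, and Pilra, at -0.32, kept their sign in the combination minus mephedrone. Snord53, Zic1 and Glp1r, at -0.95, -0.43 and -0.43, had the opposite sign there. Across the 19938 genes the correlation of the steps was -0.00097, a description over genes, which are not independent replicates. Over 6 arrays with ethanol against 6 without, the main effect of ethanol had 0 of 28853 probe sets past adjustment in limma, a smallest adjusted p of 0.898 and 1516 at an unadjusted p under 0.05.

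**Figure D4:**
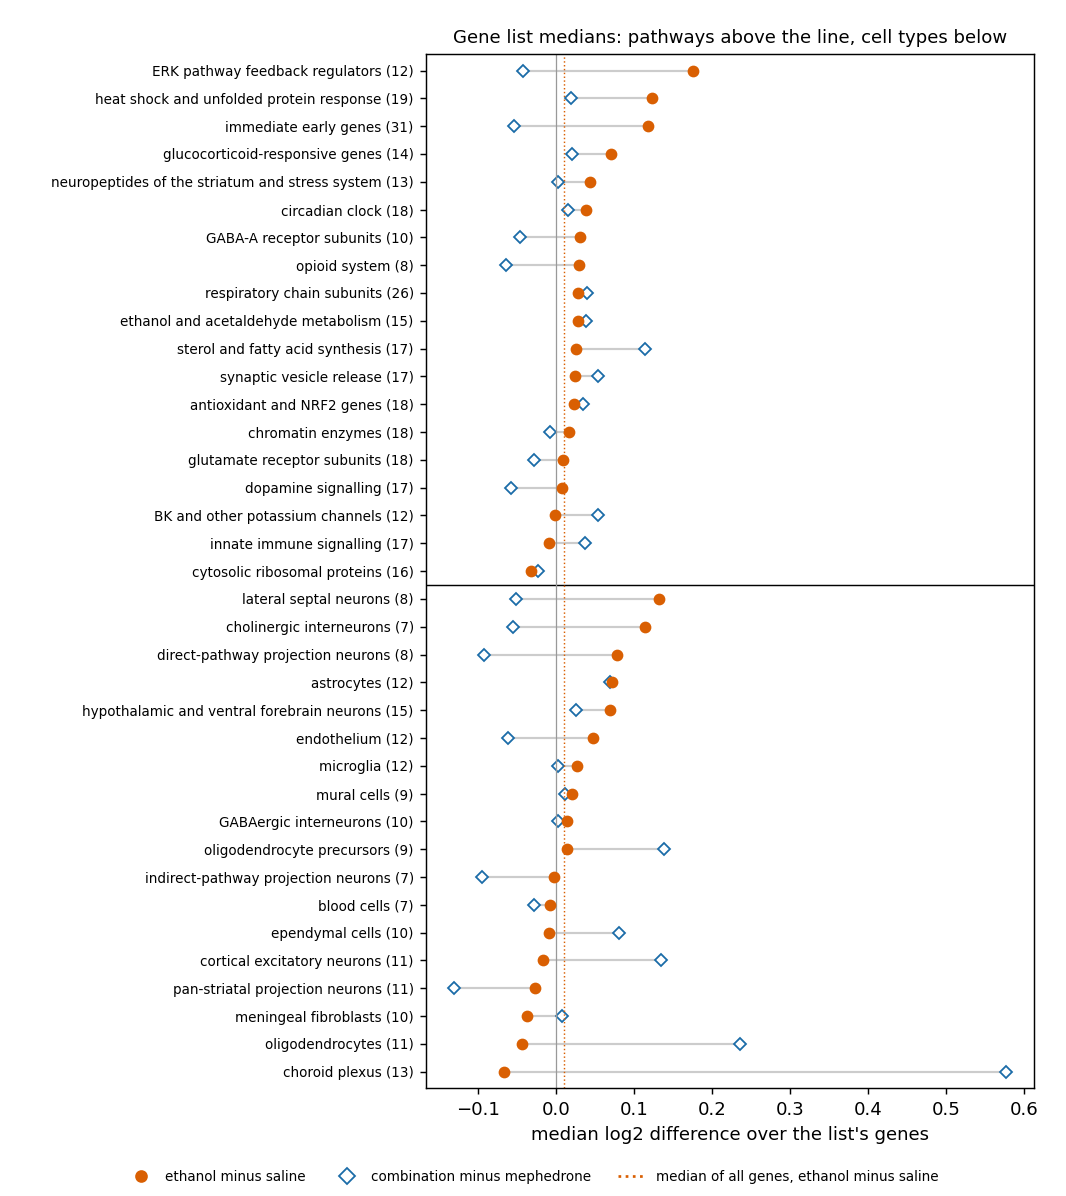
Median log2 difference over the measured genes of 37 lists (with the number of genes in brackets) for ethanol minus saline (filled circles) and for the combination minus mephedrone (open diamonds), which share no array. ERK feedback regulators, at 0.18 and -0.041, and immediate early genes, at 0.12 and -0.053, lie on opposite sides of 0 in the steps, and choroid plexus markers, at -0.067 and 0.58, follow the arrays that are high in them.

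Enzymes that handle ethanol and its products differed little. Of 15 measured, 9 lay above 0, against 58.9% of all genes, with a median of 0.028 that was -0.0096 without ethanol replicate 1. All 15 intervals lay within 1.5-fold, against 99% over all genes. Acss1, which turns acetate into acetyl-CoA in mitochondria, was the 1 member at an unadjusted p under 0.05, where 4.07% of all genes were higher. It had 0.28, 0.083 and 0.010 with ethanol and 0.051, -0.091 and -0.059 with saline, and its difference of 0.16 (SE 0.067) became 0.080 without ethanol replicate 1. Aldh2, the main mitochondrial acetaldehyde dehydrogenase, had 0.043, with a 95% confidence interval of -0.12 to 0.20. Ranges in brackets after single values, here and below, are such intervals. For Cat, catalase, the value was -0.088 (-0.32 to 0.15), for Cyp2e1 0.028 (-0.042 to 0.10) and for Adh1 -0.033 (-0.16 to 0.10). Aldh1a2, a retinoic acid enzyme that meningeal cells also express, was at -0.13 (95% confidence interval -0.26 to 0.00047).

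Measured differences were mostly small as well for subunits of the receptors on which ethanol acts. None of the 10 GABA-A subunits measured and none of the 18 glutamate receptor subunits had an unadjusted p under 0.05, and their medians were 0.031 and 0.0090. After quantile normalisation the latter was -0.0040, and without ethanol replicate 1 they were 0.0068 and -0.0022. The intervals of 9 of the 10 and 17 of the 18 lay within 1.5-fold, against 99% over all genes. Gabrd, the subunit of extrasynaptic receptors, had -0.095 (-0.31 to 0.12), and Gabra4, its usual partner in the striatum, had 0.0085 (-0.14 to 0.16). Grin2b and Grin2a, NMDA receptor subunits, had 0.0084 (-0.078 to 0.094) and -0.064 (-0.28 to 0.15). Gabrb1 and Grin2d had the smallest p of their lists, with differences of 0.13 (limma unadjusted p = 0.0986) and 0.26 (limma unadjusted p = 0.0614). Without ethanol replicate 1 these were 0.064 and 0.15.

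Drd3, the dopamine D3 receptor named in the series title, had the largest difference among dopamine genes. It had 0.34, 0.092 and 0.14 with ethanol and -0.054, -0.39 and -0.59 with saline, so the groups did not overlap, though the saline arrays were spread widely. The difference was 0.53 (SE 0.25, 95% confidence interval -0.019 to 1.08, limma unadjusted p = 0.0571), and without ethanol replicate 1 it was 0.46. In the combination minus mephedrone Drd3 was -0.35 (SE 0.25), and its interaction had an unadjusted p of 0.0301 and an adjusted p of 1.00 in limma. Its combination arrays had -0.00062, 0.00062 and -1.05, against 0.052, -0.31 and 0.25 with mephedrone, whose mean was -0.0011. The value of -0.35 thus rested on combination replicate 3, and the interaction includes that array. Over all probe sets combination replicate 3 had the highest SD of the series, 0.169, and its array weight was 0.43. None of the 17 dopamine genes measured had an unadjusted p under 0.05, and their median was 0.0081, or 0.045 without ethanol replicate 1 and -0.013 without saline replicate 2. Drd1 and Drd2, the main receptors of the direct and indirect output pathways, had 0.045 (-0.20 to 0.29) and -0.032 (-0.27 to 0.20). Slc18a2, the vesicular monoamine transporter, had 0.17 (limma unadjusted p = 0.0677), or 0.10 without ethanol replicate 1, and Th, which makes the dopamine precursor, 0.081 (-0.36 to 0.53).

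Opioid genes, which shape alcohol intake in rodents, were also near 0. Their median was 0.030 over 8 genes, none at an unadjusted p under 0.05, and it ran from 0.0069 without saline replicate 2 to 0.073 without saline replicate 1. Pdyn, the dynorphin precursor, had 0.12 (-0.056 to 0.30), Penk, the enkephalin precursor, 0.00047 (-0.12 to 0.13), and Oprm1, the mu receptor, 0.11 (-0.16 to 0.38). Of 13 neuropeptide genes, Cartpt alone was at an unadjusted p under 0.05, where 4.07% of all genes were higher. Of the 13, 7 lay above 0, against 58.9% of all genes. The median of these neuropeptide genes was 0.044, or -0.0092 after quantile normalisation and -0.025 without ethanol replicate 1. Several of these varied far more between arrays than between groups. Tac2, the neurokinin B precursor, had 0.69, -0.00043 and 0.20 with ethanol and 1.25, -1.26 and -0.37 with saline, and Cck, of cortical and other neurons, had 0.45, -0.86 and -0.039 with ethanol and -0.50, 0.64 and -0.16 with saline. Npy and Crh, both tied to stress and alcohol, had -0.019 (-0.17 to 0.13) and 0.055 (-0.035 to 0.14).

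**Figure D5:**
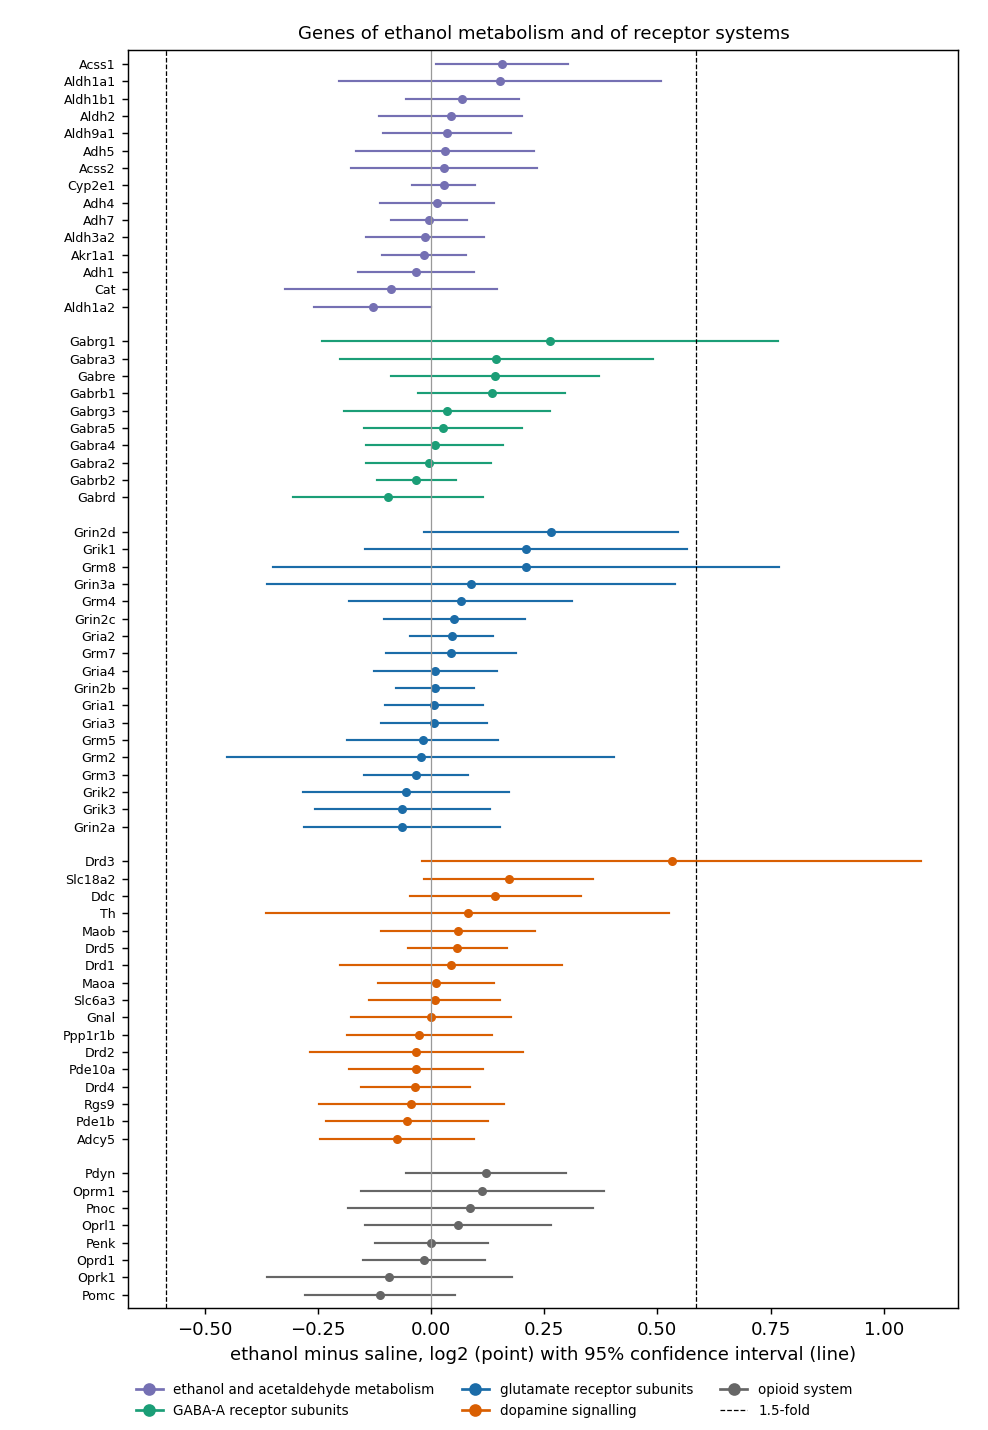
Ethanol minus saline in log2 (points) with 95% confidence intervals from limma (lines) for every measured gene of ethanol metabolism, GABA-A, glutamate, dopamine and opioid lists, with dashed lines at 1.5-fold. Only Gabrg1, Grm8 and Drd3 have intervals that cross a dashed line, and Drd3 lies farthest to the right at 0.53.

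Of 11 markers of myelinating oligodendrocytes, 10 had a difference below 0, where 58.9% of all genes lay above it, with a median of -0.043 that was -0.083 without saline replicate 1, and in 5 of the 11 the groups did not overlap, against 2.44% of all genes. None had an unadjusted p under 0.05. Mag, a myelin adhesion protein, had 0.10, 0.10 and 0.10 with saline and -0.049, -0.21 and -0.0027 with ethanol. Opalin, a membrane protein of mature oligodendrocytes, had -0.074, 0.21 and 0.28 with saline and -0.12, -0.082 and -0.092 with ethanol, a difference of -0.23 (SE 0.12, limma unadjusted p = 0.0754). Mbp, the main myelin basic protein gene, differed by -0.038 (95% confidence interval -0.19 to 0.11) and Mog by 0.021 (-0.29 to 0.34). The list means were 0.0017, 0.057 and 0.16 with saline and -0.0089, -0.059 and 0.021 with ethanol. With mephedrone present the list median was 0.24, and combination replicate 3 alone had a list mean of 0.53.

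Endothelial markers leaned the other way, with 10 of 12 above 0, against 58.9% of all genes, and 3 higher at an unadjusted p under 0.05, against 4.07%. Their median was 0.048, and 0.073 without saline replicate 1. Tek, the angiopoietin receptor, had 0.16, 0.019 and 0.077 with ethanol and -0.042, -0.034 and -0.019 with saline, a difference of 0.12 (SE 0.036). It was -0.19 in the combination minus mephedrone (limma unadjusted p = 7.52e-05 for the interaction, adjusted p = 0.511). Kdr, the main VEGF receptor, and Pecam1, a junction protein, differed by 0.14 and 0.12, with Kdr at 0.091 without ethanol replicate 1, while Cldn5 and Cdh5, junction proteins defining the same cells, had 0.022 and 0.0057. The list median was -0.061 in that step, and 4 of the 12 had an interaction at an unadjusted p under 0.05, against 3.54% of all genes. All 7 cholinergic interneuron genes lay above 0, against 58.9% of all genes, none at an unadjusted p under 0.05. Their median was 0.11, and 0.22 without saline replicate 1. Their list mean was 0.14 in saline replicate 1 and 0.049 to 0.16 in the ethanol arrays.

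Of 17 innate immune genes, 1 was higher and 1 lower at an unadjusted p under 0.05, against 4.07% and 0.908% of all genes. C4b, a complement component, had -0.19, -0.16 and -0.052 with ethanol and 0.11, -0.0020 and 0.0020 with saline, a difference of -0.17 (SE 0.048, limma unadjusted p = 0.00437), and Tlr4, a toll-like receptor linked to alcohol responses, a difference of 0.094 (SE 0.042). The other 15 innate immune genes measured, among them Il1b at -0.0087 (-0.10 to 0.085) and Tnf at -0.0023 (-0.17 to 0.16), were not at an unadjusted p under 0.05. Of 14 genes that glucocorticoids induce, 12 lay above 0, against 58.9% of all genes, with a median of 0.070 that ran from 0.043 without ethanol replicate 1 to 0.11 without saline replicate 2. Errfi1 was the only gene of them at an unadjusted p under 0.05, and Tsc22d3, a standard readout of the hormone, had 0.16 (limma unadjusted p = 0.0748). Among 12 microglial genes C1qc alone was at an unadjusted p under 0.05, with 0.16 (SE 0.071), or 0.11 without saline replicate 3. The microglial median was 0.027, and 0.0084 without saline replicate 2.

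Lateral septal markers had a median of 0.13, and 0.068 without ethanol replicate 1, the array high in them. Zic4, a zinc finger factor like Zic1, had 0.13, 0.13 and 0.038 with ethanol and 0.019, -0.040 and -0.072 with saline, and it was the only member at an unadjusted p under 0.05. Trpc4, a cation channel abundant in the septum, differed by 0.53 (SE 0.28), and by 0.19 without that array. Hap1 and Peg10, from the list of hypothalamic and ventral forebrain neurons, differed by 0.39 (SE 0.23) and 0.57 (SE 0.34), and without ethanol replicate 1 by 0.23 and 0.54. Of 13 choroid plexus genes 5 lay above 0, against 58.9% of all genes, and none was at an unadjusted p under 0.05. Their median was -0.067. It was 0.16 without saline replicate 2 and -0.17 without ethanol replicate 1.

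Medians for projection neurons of the striatum turned sign or came near 0 when single arrays were left out. Medians were -0.026 for genes common to projection neurons, 0.078 for those of the direct pathway and -0.0025 for those of the indirect pathway. Without ethanol replicate 1 the first was 0.045, with 10 of 11 genes above 0 in place of 4, and the last was 0.042. Without saline replicate 2 the direct-pathway median was 0.00043. Eya1, a developmental cofactor in direct-pathway cells, had -0.34, -0.0071 and -0.19 with ethanol and -0.13, 0.19 and 0.084 with saline, a difference of -0.23 (SE 0.090) that was -0.15 without ethanol replicate 1. Sfxn1, a mitochondrial serine carrier, had the opposite sign, at 0.12 (SE 0.055), or 0.073 without saline replicate 1. Of 10 interneuron genes Lhx6, a factor of cells born in the medial ganglionic eminence, was at an unadjusted p under 0.05, with 0.19 (SE 0.083). Pvalb and Sst, which mark classes of those cells, had 0.13 (-0.52 to 0.79) and 0.044 (-0.13 to 0.22). Cortical excitatory markers had a median of -0.017 but list means of -0.25, 0.26 and -0.047 in the saline arrays and 0.13, -0.32 and 0.0043 in the ethanol arrays, a wider spread within groups than between them.

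Among glia and support cells, Fgfr3, a growth factor receptor of astrocytes, differed by 0.16 (SE 0.065), or 0.10 without saline replicate 2, and 10 of 12 astrocyte genes lay above 0, against 58.9% of all genes, with a median of 0.072. The astrocyte median was 0.023 without ethanol replicate 1, and 0.0065 without both arrays high in choroid plexus markers, with 7 of 12 above 0. Gfap, the filament protein of reactive astrocytes, had -0.078 (-0.52 to 0.36). Dcn, a matrix proteoglycan, differed by 0.19 (SE 0.074) and was the only meningeal fibroblast gene at an unadjusted p under 0.05. Precursors of oligodendrocytes, mural, ependymal and blood cells had no member at an unadjusted p under 0.05, and medians of 0.014, 0.021, -0.0090 and -0.0079.

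Of the housekeeping and signalling lists, sterol and fatty acid synthesis had 14 of 17 genes above 0, against 58.9% of all genes. Its median of 0.026, however, was -0.044 without ethanol replicate 1. Nsdhl, a cholesterol enzyme, was its only member at an unadjusted p under 0.05, with 0.14 (SE 0.063), or 0.087 without that array. Respiratory chain subunits had a median of 0.029 over 26 genes and -0.0065 without that array, with Atp5j, a subunit of ATP synthase, at 0.094 (SE 0.039). Ribosomal proteins had a median of -0.032, with 5 of 16 above 0, against 58.9% of all genes. Rps14 was at -0.14 (SE 0.058), and the ribosomal median was -0.076 without ethanol replicate 1. Dnmt1, the maintenance DNA methyltransferase, differed by 0.086 (SE 0.037), in a list of chromatin enzymes with a median of 0.017 that was -0.0097 without ethanol replicate 1. Circadian clock, antioxidant, potassium channel and synaptic vesicle genes had no member at an unadjusted p under 0.05, and medians of 0.039, 0.024, -0.00054 and 0.024. Kcnma1, the BK channel that ethanol acts on directly, had -0.070 (-0.20 to 0.063). Of the 37 lists, 13 kept the sign of their median in all 10 alternatives tried and 24 did not. Those that kept it included immediate early genes, ERK feedback regulators, heat shock and unfolded protein genes, glucocorticoid-responsive genes, endothelium, cholinergic interneurons and oligodendrocytes. Quantile normalisation turned the sign of 6, which were glutamate receptors, neuropeptides, chromatin enzymes, GABAergic interneurons, indirect-pathway neurons and oligodendrocyte precursors.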

How the data were processed

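RNA was measured on 12 arrays, 3 for each of 4 treatments, and samples were grouped by their source label. The values, as deposited, are on a log2 scale and cover 28853 probe sets. Per the submitters' processing notes RMA and the mouse build mm8 were used, and GeneSpring GX 7.3.1 normalised the samples according to the design text. Their order is not given in the sources used here. The log2 scale and the centring of each probe set on its median over the 12 arrays were read from the values.

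The members and gene lists were chosen with earlier results of these data known. In R 4.3.3, limma 3.58.1 estimated the 4 group means from the 12 arrays together, with moderated two-sided tests and Benjamini-Hochberg adjustment over all probe sets, tested on simulated data. Gene values are means over the 21789 probe sets with 1 symbol, and were adjusted over 19938 genes. Another 1621 probe sets with several symbols and 5443 with none stayed unnamed. Named were genes without overlap and a difference of at least 0.3 (15 per direction by p), the 10 largest differences per direction, up to 6 members per list at an unadjusted p under 0.05 or otherwise the 2 with the smallest p, and Drd3. Others named are members given for their role, or are said to be chosen after their values were seen. Alternatives tried were other normalisations, fits, filters and arrays left out. Promoters are from RefSeq (GRCm38.p6).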

Additional observations from a re-analysis of the deposited data

How the results depend on the processing

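Under 18 alternatives for the main comparison the number of probe sets past an adjusted p under 0.05 in limma was 0, except 1 without saline replicate 1, so it ran from 0 to 1 over the replicates left out in turn. The number at an unadjusted p under 0.05 was 1440 and ran from 1024 without saline replicate 3 to 2244 without saline replicate 1. It was 621 where only the more variable part of the probe sets was tested, which is fewer probe sets. The combination minus mephedrone, the interaction and the main effect of ethanol gave 0 in every alternative run for them. With the replicate number as a block (replicate block), 0 passed and 1629 lay at an unadjusted p under 0.05. Whether the numbers pair the arrays was not settled by the correlations of their deviations. Of 18 same-number pairs, 6 were correlated over 0.1. Same-number pairs ran from -0.25 to 0.40 and other pairs from -0.37 to 0.33. The same-number pairs of saline and ethanol ran from -0.20 to 0.15. Of 109 named genes, 10 turned sign in some alternative, in 20 of 1782 values, none past the threshold, and the cause was not tested. Without saline replicate 2 and ethanol replicate 1 together, Ndst4 was -0.13, Kcnma1 0.010 and Slc4a1 0.0036. Without ethanol replicate 1 and combination replicate 3 together, Ndst4 was -0.018, Grik1 -0.0047, Ngp -0.0056 and Slc4a1 0.020. Over the replicates left out in turn, Ndst4 ran from -0.018 to 0.97, Ttr from -1.31 to 0.33, Clic6 from -0.045 to 0.47 and Fezf2 from -0.27 to 0.051. Grik1 ran from -0.0047 to 0.32, Kcnma1 from -0.12 to 0.019 and Ngp from -0.0060 to 0.036. Rsph1 ran from -0.0077 to 0.13, Slc4a1 from -0.091 to 0.020 and Ttc12 from -0.064 to 0.017. Of 370 list medians under alternatives, 12 moved by over 1 SD between replicates. Signal over background could not be read from centred values, so weakly expressed genes could not be set aside, and 3 arrays a group limit the precision.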
